A study of Paeonia lactiflora with 9 samples.

Results

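The unigenes described here are 30 assembled transcripts of herbaceous peony seeds that carry the annotation of a sterol enzyme. They were taken from the study's supplementary list of 503 lipid metabolism DEGs as the entries whose enzyme definition contains sterol, squalene, cycloartenol, cycloeucalenol or cholest, and all 30 were found by name among the 125685 unigenes with deposited expression values. None was annotated by cycloeucalenol. The definitions fall into 13 annotations, of which 12 are steps of sterol biosynthesis with 27 unigenes, and the other is a sterol ester hydrolase with 3. The list itself holds unigenes that differed between stages in these same libraries, so the changes between stages chose the members. They are given below as a description, without a p-value.

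The study followed seeds of Paeonia lactiflora 'Hangshao', a cultivar grown for several years in a university germplasm garden, to relate gene expression to the build-up of oil. Seeds were sequenced at 30, 60 and 90 days after flowering (DAF), from young to mature seeds, with 3 libraries per stage and 9 in all. All 9 libraries share the cultivar, the site and, by the study's methods, the strain, and no group was treated, so the SDs need not cover the spread between plants or years. Later stages are compared with earlier ones as Group I (60 against 30 DAF), Group II (90 against 60 DAF) and Group III (90 against 30 DAF), and these groups share libraries.

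Sterols are lipids of the plasma membrane, and sitosterol, stigmasterol and campesterol are the common ones of plants. Plants make them from squalene, which is oxidised, closed into the ring compound cycloartenol, and then trimmed of methyl groups on the rings, methylated on the side chain and reduced. Campesterol is also the precursor of brassinosteroids, the growth hormones whose loss makes Arabidopsis dwarf, and seeds store part of their sterols as esters.

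The deposited unit was FPKM, the fragments of a unigene divided by its length and by the size of the library, so that levels can be compared between unigenes. The depth of the libraries relative to replicate 1 at 30 DAF, read from the step between low FPKM values, was 0.871 to 1.07, and a listed 0 means that few or no fragments were assigned. Over the 55192 unigenes that reached 0.5 FPKM in 3 or more libraries, replicates of a stage had a Pearson's r of 0.939 to 0.949 (30 DAF), 0.927 to 0.936 (60 DAF) or 0.814 to 0.856 (90 DAF) on log2(FPKM + 0.5), taken over unigenes, which do not vary independently. On that log2 scale the change of the median unigene was -0.31, 0.36 and 0.06 in Groups I, II and III, and log2 changes are therefore printed relative to it. The summed FPKM of the 6 oleosin unigenes of the list, oil body proteins of seeds, was 816 ± 84.9, 6556 ± 1990 and 9813 ± 2632 at 30, 60 and 90 DAF (SD, n = 3 each).

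The sterol biosynthesis unigenes were highest in young seeds. All 27 had their highest stage mean at 30 DAF on the deposited FPKM, although of all 30 sterol unigenes 20 did so after median-of-ratios scaling and 22 after quantile normalization, against 27. For 26 of the 27 the lowest stage mean was at 90 DAF. Together they had 587 ± 15.4 FPKM at 30 DAF, 353 ± 41.2 FPKM at 60 DAF and 167 ± 18.6 FPKM at 90 DAF (SD and n = 3 here and below), so that the 90 DAF mean was 28.4% of the 30 DAF mean. The 60 DAF mean was 60.2% of the 30 DAF mean on the deposited FPKM and 79.9% after median-of-ratios scaling, so the size of that step depends on scaling. Because ground seeds were sequenced in bulk, fewer cells of a type and less RNA per cell cannot be told apart. Of the 55192 unigenes with enough FPKM, 38.0% were highest at 30 DAF and 52.2% at 90 DAF, with the remaining 9.75% at 60 DAF, and of the other 473 unigenes of the lipid list, 52.2% were highest at 30 DAF.

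A change was called where it reached 2-fold on the log2(FPKM + 0.5) scale with an adjusted p of at most 0.05 in limma, and 29 of the 30 unigenes had enough FPKM for that fit. In Group I, 11 of the 29 were called lower at 60 DAF, beside 6.33% of all 55192 unigenes, and none was called higher, beside 1.72%. The 4 called after median-of-ratios scaling of the libraries were Unigene29944_All, CL3430.Contig1_All and Unigene16863_All, which were lower, and Unigene20130_All, which was higher, and the count was 7 without replicate 2 at 30 DAF and 7 without replicate 3 at 60 DAF. In these fits 3494, 3129 and 3511 of all 55192 unigenes were called. In Group II, 13 were called lower at 90 DAF, beside a background of 9.41%, and none was called higher, beside 18.2%. In Group III, 25 were called lower at 90 DAF and 1 higher, beside backgrounds of 16.5% and 13.7%. Called in either direction were 8.05%, 27.6% and 30.2% of all 55192 in Groups I, II and III. The median log2 change of the 29, relative to the median unigene, was -0.58, -1.35 and -1.82 in the same order, and that of the other lipid list unigenes in the fit, 429 in number, was -0.03, -1.36 and -1.56. Nothing follows about the sterol unigenes from these counts, since the same contrasts chose them.

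On the deposited FPKM the libraries of young and mature seeds were well separated. All 27 biosynthesis unigenes had every 90 DAF library below every 30 DAF library, and for all 30 sterol unigenes 27 did so, beside 23.5% of the 55192. In Group I, 18 had every 60 DAF library below every 30 DAF library (background 29.9%), and in Group II, 19 had every 90 DAF library below every 60 DAF library (background 14.9%). The later libraries were all above the earlier ones for 2 in Group I (background 5.84%), 1 in Group II (background 32.5%) and 2 in Group III (background 24.6%), all of them of the ester hydrolase. The unigenes were chosen on differences between these same stages, so nothing follows about them from these counts either. On the deposited FPKM replicates were tightest in young seeds, where the median coefficient of variation of the unigenes above 0 was 15.0%. It was 19.9% at 60 DAF and 40.5% at 90 DAF, where most of the unigenes had their lowest mean. After median-of-ratios scaling the sum of the 27 biosynthesis unigenes was 539 ± 61.3 FPKM at 30 DAF and 430 ± 37.2 FPKM at 60 DAF. The spread of that sum relative to its mean was thus not smallest at 30 DAF.

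**Figure D1:**
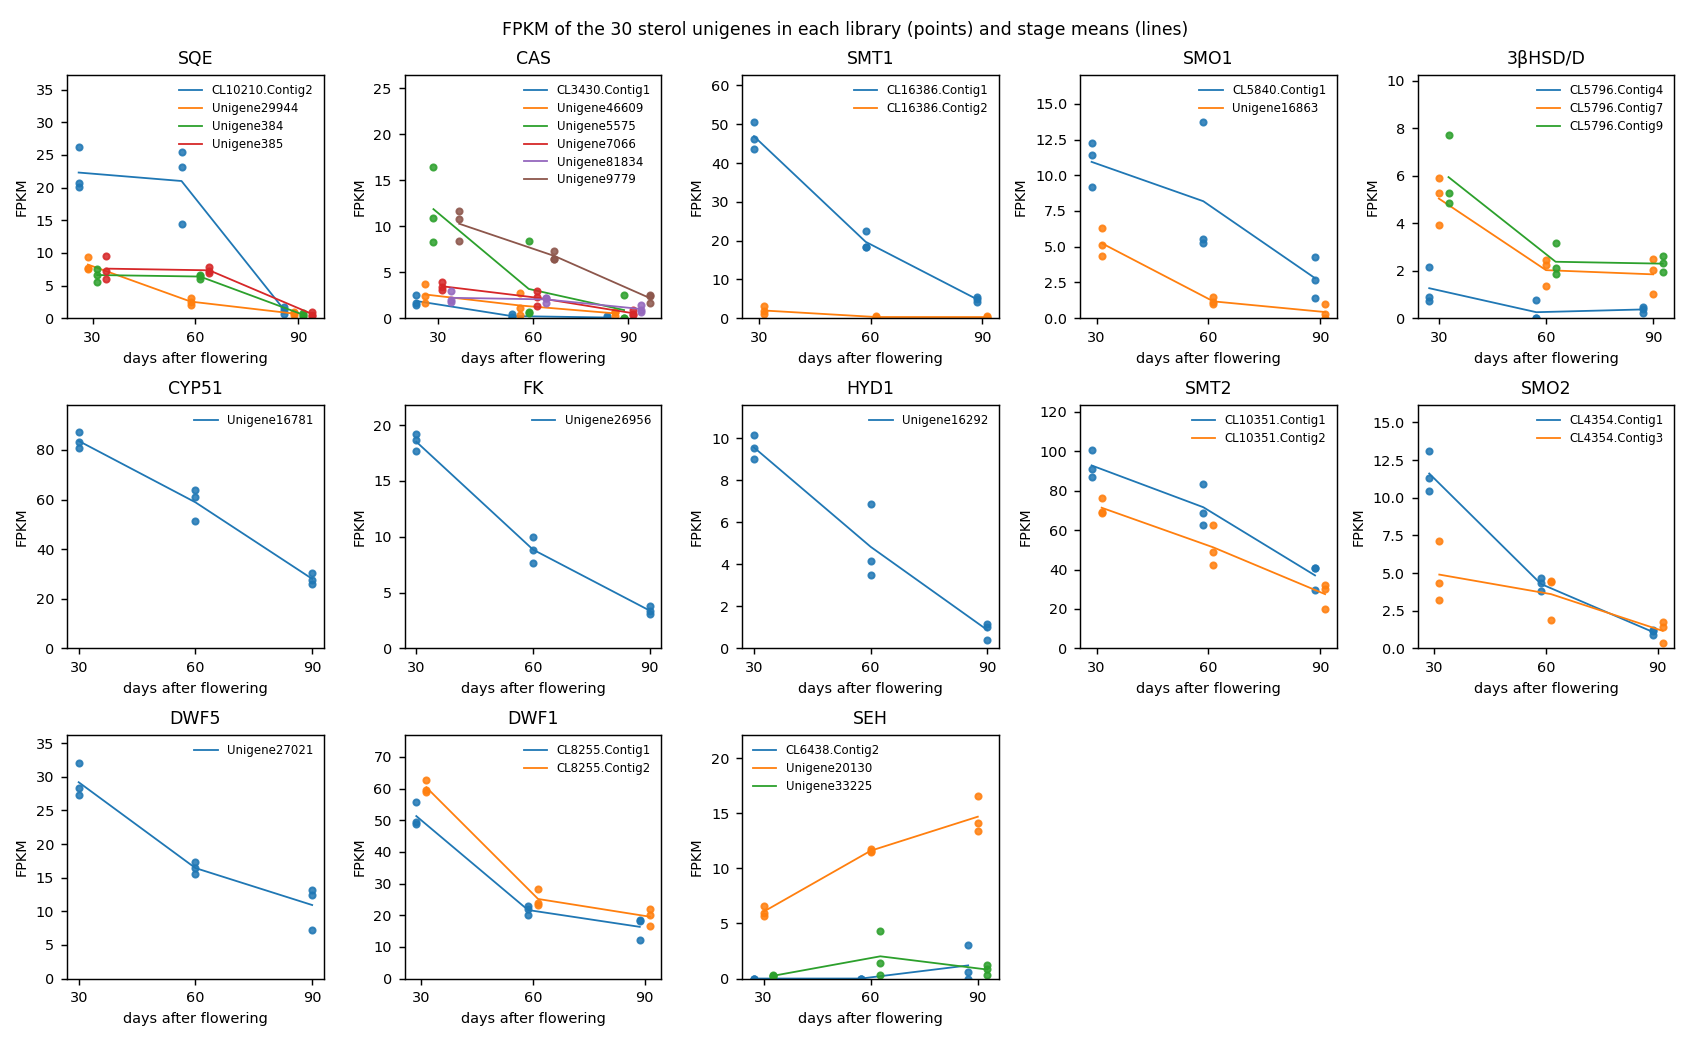
FPKM (vertical axes, a separate linear scale for each annotation) of the 30 sterol unigenes in each of the 9 libraries against days after flowering (30, 60 and 90). Points are libraries, shifted sideways where an annotation has several unigenes, and lines join stage means. The 27 unigenes of the 12 biosynthesis annotations have their highest mean at 30 DAF, whereas Unigene20130_All of the ester hydrolase (SEH) is highest at 90 DAF, both on the deposited FPKM and not for every unigene after rescaling the libraries.

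The pathway starts from squalene, which squalene synthase makes from farnesyl diphosphate, a step that also feeds the triterpenes. The lipid list holds 20 unigenes of this annotation, chosen on the same libraries, and 17 had enough FPKM for the fit. In Group I, 2 were called higher and 2 lower at 60 DAF, beside 1.72% and 6.33% of all 55192. In Group II, 14 were called lower at 90 DAF and none higher, beside 9.41% and 18.2%. In Group III, 14 were called lower and 1 higher at 90 DAF, beside 16.5% and 13.7%. They summed to 435 ± 31.6 FPKM at 30 DAF, 306 ± 76.6 FPKM at 60 DAF and 17.6 ± 3.30 FPKM at 90 DAF, which leaves 4.05% of the 30 DAF mean. The 60 DAF mean was 70.5% of the 30 DAF mean on the deposited FPKM. After median-of-ratios scaling it was 93.0%, and the libraries of these stages overlapped.

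The 3 squalene synthase unigenes of highest mean FPKM followed different courses up to 60 DAF. CL13056.Contig1_All had 198, 189 and 171 FPKM at 30 DAF, 2.69, 2.14 and 3.15 FPKM at 60 DAF and 1.2, 0.09 and 1.5 FPKM at 90 DAF. Unigene20575_All had 74.8, 64.4 and 75.0 FPKM at 30 DAF, 126, 89.2 and 84.2 FPKM at 60 DAF and 0.07, 0 and 0 FPKM at 90 DAF. Unigene41108_All had 69.3, 47.6 and 61.7 FPKM at 30 DAF, 141, 104 and 67.3 FPKM at 60 DAF and 0.10, 0.03 and 0.03 FPKM at 90 DAF. The level of CL13056.Contig1_All was thus already low in every 60 DAF library, while the other two were still high there and lay near 0 in every 90 DAF library.

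Squalene monooxygenase (SQE) adds oxygen to squalene and is regarded as a controlling step of sterol synthesis in animals and yeast. Its 4 unigenes summed to 44.7 ± 4.17 FPKM at 30 DAF, 37.2 ± 5.76 FPKM at 60 DAF and 3.09 ± 0.16 FPKM at 90 DAF. The 60 DAF mean was 83.3% of the 30 DAF mean on the deposited FPKM and 111% of it after median-of-ratios scaling, so no direction is given for that step. The 90 DAF mean was 8.31% of the 60 DAF mean, the lowest such share of the 12 biosynthesis annotations.

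CL10210.Contig2_All, the most abundant SQE unigene, had 26.2, 20.02 and 20.7 FPKM at 30 DAF, 25.4, 23.1 and 14.5 FPKM at 60 DAF and 0.70, 1.74 and 1.25 FPKM at 90 DAF. Its 30 and 60 DAF libraries overlapped, and its 90 DAF libraries were all far below. Unigene385_All had 7.23, 9.56 and 5.96 FPKM at 30 DAF, 7.86, 7.27 and 6.85 FPKM at 60 DAF and 1.0, 0.54 and 0.34 FPKM at 90 DAF. Unigene384_All followed it, with means of 6.60, 6.37 and 0.54 FPKM over the 3 stages, and the ratio of Unigene385_All to Unigene384_All stayed between 0.739 and 1.46 in the 9 libraries. These 3 unigenes were called lower in Groups II and III and in neither direction in Group I.

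Unigene29944_All, the remaining SQE unigene, went down earlier than the others. Its mean was 8.21 ± 0.97 FPKM at 30 DAF, 2.53 ± 0.48 FPKM at 60 DAF and 0.70 ± 0.22 FPKM at 90 DAF, and it was called lower in all 3 groups. Relative to CL10210.Contig2_All it stood at 0.291 to 0.466 in the 30 DAF libraries and 0.0896 to 0.209 in the 60 DAF libraries, which do not overlap, and median-of-ratios scaling leaves this ratio as it is. At 90 DAF, where both were low, the ratio was 0.259 to 1.10.

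Cycloartenol synthase (CAS) folds oxidised squalene into cycloartenol, the step at which plant sterols part from the other triterpenes. Its 6 unigenes summed to 32.2 ± 6.69 FPKM at 30 DAF, 15.8 ± 3.52 FPKM at 60 DAF and 5.18 ± 1.39 FPKM at 90 DAF. Other cyclases of oxidised squalene are related to CAS in sequence, so the sum may hold unigenes of another triterpene route. Unigene9779_All had 8.35, 10.8 and 11.7 FPKM at 30 DAF, 6.47, 7.33 and 6.48 FPKM at 60 DAF and 2.56, 1.62 and 2.38 FPKM at 90 DAF. Its stages did not overlap on the deposited FPKM, and it was called lower in Groups II and III.

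Unigene5575_All, as high as Unigene9779_All in young seeds, was uneven between replicates. It had 8.26, 10.9 and 16.4 FPKM at 30 DAF, 0.63, 8.34 and 0.56 FPKM at 60 DAF and 2.55, 0.05 and 0.03 FPKM at 90 DAF. Replicate 2 alone was high at 60 DAF and replicate 1 alone at 90 DAF. Without replicate 2 at 60 DAF the unigene was called lower in Group I, with a log2 change of -3.44, before the shift of the median unigene is taken off, against -2.44 with it.

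The 4 other CAS unigenes had means of 1.86 to 3.47 FPKM at 30 DAF, 0.23 to 2.22 FPKM at 60 DAF and 0.07 to 0.99 FPKM at 90 DAF. CL3430.Contig1_All was called lower in Groups I and III, Unigene7066_All in Groups II and III and Unigene46609_All in Group III. The call of Unigene46609_All was lost without replicate 2 or 3 at 30 DAF, replicate 1 at 60 DAF or replicate 2 or 3 at 90 DAF, with a log2 change of -1.32 to -1.73 there (before the shift of the median unigene is taken off, as for all log2 changes below with a library left out). Unigene81834_All, with means of 2.21, 2.04 and 0.99 FPKM over the 3 stages, was called in no group, but in Groups II and III without replicate 2 at 90 DAF, with log2 changes of -1.01 and -1.09 before the shift of the median unigene is taken off. On that scale it was also called lower in Group II after median-of-ratios scaling (-1.24) and quantile normalization (-1.08). With 0.1 in place of 0.5 added to FPKM it was called lower in Groups II and III (-1.03 and -1.12).

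Sterol C-methyltransferase SMT1 puts the first extra methyl group on the side chain of cycloartenol. CL16386.Contig1_All had 43.7, 50.7 and 46.3 FPKM at 30 DAF, 22.4, 18.2 and 18.4 FPKM at 60 DAF and 4.92, 4.07 and 5.44 FPKM at 90 DAF. The stages were widely apart, the 90 DAF mean was 10.3% of the 30 DAF mean, and the unigene was called lower in all 3 groups. In Group I it was not called after median-of-ratios scaling or quantile normalization. Its log2 change relative to the median unigene was -3.23 in Group III. CL16386.Contig2_All, a contig of the same assembly cluster, had at most 0.0864 times the FPKM of Contig1 in any library and was called lower in Groups I and III. Its Group I call was lost without replicate 2 or 3 at 30 DAF or replicate 1 or 2 at 60 DAF, with a log2 change of -1.33 to -1.69 there on the unshifted scale. That call was also lost after either scaling. Fragments of such contigs can match both, and RSEM divides them.

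A methyl oxidase, SMO1, and a dehydrogenase and decarboxylase, 3βHSD/D, together take the first methyl group off the ring. For SMO1, CL5840.Contig1_All had 11.4, 12.3 and 9.15 FPKM at 30 DAF, 5.55, 13.8 and 5.24 FPKM at 60 DAF and 4.27, 2.68 and 1.44 FPKM at 90 DAF. Replicate 2 at 60 DAF was above all other libraries, and the remaining 60 DAF libraries were below every 30 DAF library. Unigene16863_All was more even at 60 DAF, with means of 5.25 ± 0.97, 1.17 ± 0.26 and 0.43 ± 0.52 FPKM at 30, 60 and 90 DAF, and was called lower in Groups I and III. At 90 DAF it was uneven, with 0, 0.28 and 1 FPKM. After median-of-ratios scaling, after quantile normalization and without replicate 3 at 90 DAF it was called lower in Group II too. The log2 changes there were -1.30, -1.18 and -1.41, against -0.99, on the unshifted scale. CL5840.Contig1_All was called lower in Groups II and III, and its call in Group II was lost without replicate 2 at 60 DAF, replicate 2 at 90 DAF or replicate 3 at 90 DAF. Its log2 change there was -0.93, -1.38 or -1.02, against -1.36 with all libraries, before the shift of the median unigene is taken off. The Group I call of Unigene16863_All was lost without any of the 3 libraries of 30 DAF and without replicate 2 or 3 at 60 DAF, with a log2 change of -1.65 to -1.89 there on the unshifted scale.

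The other contig of cluster CL5840 is outside the lipid list and was looked at after its values were seen. CL5840.Contig2_All had 4.98, 5.19 and 4.92 FPKM at 30 DAF, 9.75, 4.34 and 8.24 FPKM at 60 DAF and 1.49, 5.02 and 5.37 FPKM at 90 DAF. It was low in the 60 DAF library in which Contig1 was high, and high in the other two. The sum of both contigs was 16.0 ± 1.73 FPKM at 30 DAF, 15.6 ± 2.33 FPKM at 60 DAF and 6.76 ± 0.97 FPKM at 90 DAF, so that the 60 DAF mean of the cluster was 97.9% of the 30 DAF mean, whereas for Contig1 alone it was 74.8%. The division of fragments between the contigs was not tested.

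**Figure D2:**
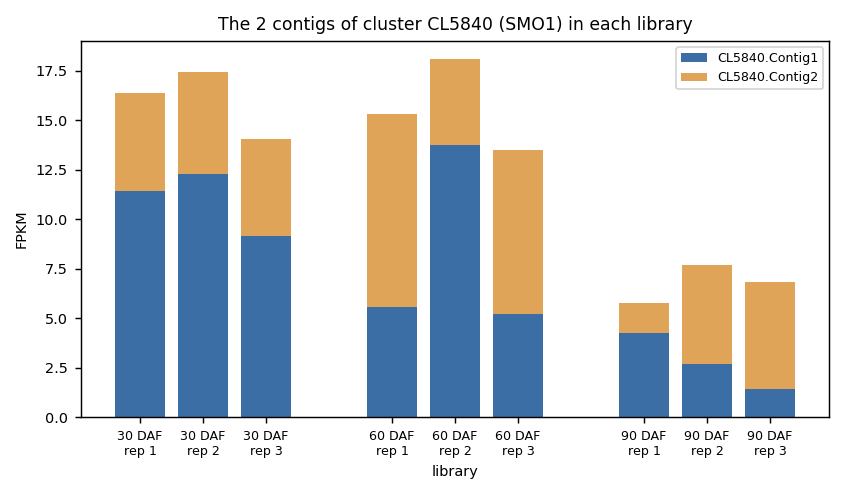
FPKM (vertical axis, stacked bars from 0) of CL5840.Contig1_All, which is on the lipid list, and of CL5840.Contig2_All, which is not, in each of the 9 libraries. In the 60 DAF libraries Contig1 is highest (13.8 FPKM) where Contig2 is lowest (4.34 FPKM), and the cluster sum is 16.0 FPKM at 30 DAF, 15.6 FPKM at 60 DAF and 6.76 FPKM at 90 DAF on average.

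The 3βHSD/D unigenes are 3 of 9 contigs of cluster CL5796. CL5796.Contig9_All had 5.27, 7.69 and 4.85 FPKM at 30 DAF, 1.87, 3.15 and 2.10 FPKM at 60 DAF and 2.34, 1.93 and 2.61 FPKM at 90 DAF. The 60 and 90 DAF libraries overlapped and both lay below 30 DAF. CL5796.Contig7_All had means of 5.03, 2.02 and 1.84 FPKM over the 3 stages, and both contigs were called lower in Groups I and III and not in Group II. The Group III call was lost without replicate 2 at 30 DAF for Contig9 and without replicate 2 at 90 DAF for Contig7, where both log2 changes were just short of 2-fold. In Group I the call of Contig9 was lost without replicate 2 at 30 DAF or replicate 1 or 3 at 60 DAF, and that of Contig7 without any library of 30 or 60 DAF or replicate 3 at 90 DAF. Both Group I calls were also lost after median-of-ratios scaling and after quantile normalization. The 3 unigenes summed to 12.2 ± 2.40 FPKM at 30 DAF, 4.64 ± 1.03 FPKM at 60 DAF and 4.50 ± 0.94 FPKM at 90 DAF. For this annotation the 90 DAF mean was 97.0% of the 60 DAF mean on the deposited FPKM and 62.3% after median-of-ratios scaling.

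CL5796.Contig4_All was the lowest of the 3, with means of 1.26, 0.25 and 0.37 FPKM, and was called in no group, but in Group I without replicate 1 at 60 DAF, with a log2 change of -1.73 on the unshifted scale. Its log2 change relative to the median unigene was -1.01 in Group III, close to the -0.94 of Unigene81834_All. That unigene too was called only under alternative settings. Just outside the list, 4 contigs of the cluster were more abundant than Contig4. CL5796.Contig5_All, Contig2, Contig6 and Contig1 had means of 0.75 to 1.92 FPKM at 30 DAF, 0.45 to 1.21 FPKM at 60 DAF and 0.52 to 1.36 FPKM at 90 DAF. The 9 contigs together had a 90 DAF mean that was 47.8% of the 30 DAF mean, and the 3 on the list 36.8%.

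CYP51 is the demethylase that all sterol-making kingdoms share, and in plants it acts on obtusifoliol. Its Unigene16781_All had 80.6, 83.2 and 87.1 FPKM at 30 DAF, 64.0, 61.2 and 51.4 FPKM at 60 DAF and 30.3, 26.1 and 27.6 FPKM at 90 DAF. On the deposited FPKM its replicates lay close together, and its stages did not overlap. The 60 DAF mean was 70.4% of the 30 DAF mean there. After median-of-ratios scaling it was 93.5%, and the 30 and 60 DAF libraries overlapped. The 90 DAF mean was 33.5% of the 30 DAF mean on the deposited FPKM. The unigene was called lower in Groups II and III, and its log2 change relative to the median unigene was -1.63 in Group III. The Group II call was lost without replicate 1 at 60 DAF, with a log2 change of -0.99 against -1.05 before the shift of the median unigene is taken off.

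FACKEL (FK), a reductase, and HYDRA1 (HYD1), an isomerase, act on the rings next, and mutants of both have misshapen embryos in Arabidopsis. Unigene26956_All of FK had 18.7, 17.6 and 19.2 FPKM at 30 DAF, 10.01, 8.84 and 7.67 FPKM at 60 DAF and 3.30, 3.75 and 3.08 FPKM at 90 DAF, and was called lower in all 3 groups, in Group I not without replicate 3 at 60 DAF or after either scaling. Unigene16292_All of HYD1 had 9.53, 10.1 and 8.99 FPKM at 30 DAF, 6.84, 4.13 and 3.51 FPKM at 60 DAF and 1.03, 0.39 and 1.18 FPKM at 90 DAF, and was called lower in Groups II and III, in Group I also without replicate 1 at 60 DAF. The HYD1 unigene was left with 9.07% of its 30 DAF mean at 90 DAF, and the FK unigene with 18.2%.

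SMT2 adds the second extra methyl group to the side chain, and in Arabidopsis it sets the balance of sitosterol to campesterol. Its contigs had the largest summed FPKM of the 12 annotations at every stage. CL10351.Contig1_All, the highest of the 30 unigenes over all libraries, had 101, 90.9 and 86.8 FPKM at 30 DAF, 83.4, 68.9 and 62.5 FPKM at 60 DAF and 40.7, 40.6 and 29.7 FPKM at 90 DAF. CL10351.Contig2_All had 76.3, 69.0 and 68.8 FPKM at 30 DAF, 62.4, 48.9 and 42.4 FPKM at 60 DAF and 30.2, 32.2 and 20.1 FPKM at 90 DAF. The contigs moved side by side, with Contig2 at 0.678 to 0.792 of Contig1 in every library. The sum of both was 164 ± 11.3 FPKM at 30 DAF, 123 ± 20.9 FPKM at 60 DAF and 64.5 ± 12.7 FPKM at 90 DAF, and the 90 DAF mean was 39.3% of the 30 DAF mean, the highest share of the 12 annotations when only listed unigenes are summed, since all 9 contigs of the 3βHSD/D cluster together were at 47.8%. For the step to 60 DAF, the 60 DAF mean was 74.8% of the 30 DAF mean on the deposited FPKM and 98.7% after median-of-ratios scaling. Both contigs were called lower in Group III only, and in Group II too after either scaling or without replicate 3 at 60 DAF or replicate 2 at 90 DAF, and for Contig1 without replicate 1 at 90 DAF.

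SMO2 takes the second methyl group off the ring. CL4354.Contig1_All had 10.4, 13.1 and 11.3 FPKM at 30 DAF, 4.66, 4.33 and 3.83 FPKM at 60 DAF and 1.23, 1.14 and 0.91 FPKM at 90 DAF, with no overlap between stages, and was called lower in all 3 groups, in Group I not after either scaling. CL4354.Contig3_All of the same cluster had means of 4.90 ± 2.02, 3.60 ± 1.49 and 1.16 ± 0.73 FPKM at 30, 60 and 90 DAF and was called lower in Groups II and III. With a library left out, its Group II call was lost in all fits but those without replicate 2 at 60 DAF or replicate 2 at 90 DAF, and its Group III call was lost without replicate 2 at 30 DAF. Unlike the SMT2 contigs these did not keep a fixed proportion, and Contig3 stood at 0.276 to 1.55 of Contig1.

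DWF5 and DWF1 are late reductases, of the ring and of the side chain, and Arabidopsis mutants of either are dwarf for want of brassinosteroids. Unigene27021_All of DWF5 had 28.3, 32.0 and 27.2 FPKM at 30 DAF, 17.3, 16.4 and 15.6 FPKM at 60 DAF and 12.4, 7.26 and 13.1 FPKM at 90 DAF. It was called lower in Group III only, although the stages did not overlap. After median-of-ratios scaling it was called lower in Group II too, with a log2 change of -1.21 on the unshifted scale. For DWF1, CL8255.Contig2_All had 62.7, 59.4 and 59.1 FPKM at 30 DAF, 28.2, 23.4 and 23.8 FPKM at 60 DAF and 19.9, 22.0 and 16.6 FPKM at 90 DAF. CL8255.Contig1_All had 55.7, 49.4 and 48.8 FPKM at 30 DAF, 22.9, 19.97 and 22.1 FPKM at 60 DAF and 18.3, 18.6 and 12.1 FPKM at 90 DAF. Both DWF1 contigs were called lower in Groups I and III and not in Group II, and their ratio stayed between 0.727 and 0.927. Neither was called in Group I after either scaling, and CL8255.Contig1_All was called lower in Group II after median-of-ratios scaling.

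The sums over DWF1 were 112 ± 5.82 FPKM at 30 DAF, 46.8 ± 3.99 FPKM at 60 DAF and 35.9 ± 6.27 FPKM at 90 DAF. The 60 DAF mean was 41.9% of the 30 DAF mean, and the 90 DAF mean was 76.7% of the 60 DAF mean. For SQE the same shares were 83.3% and 8.31%. After median-of-ratios scaling they were 55.4% and 49.8% for DWF1 and 111% and 5.38% for SQE. After quantile normalization they were 54.8% and 58.1% for DWF1 and 108% and 5.72% for SQE. The larger of the 2 steps of DWF1 was thus the one to 60 DAF on the deposited FPKM and after quantile normalization. After median-of-ratios scaling it was the one to 90 DAF. The ratio of DWF1 to SQE, which median-of-ratios scaling leaves as it is, was 2.51 ± 0.18, 1.27 ± 0.19 and 11.6 ± 1.65 at 30, 60 and 90 DAF, and the stages did not overlap.

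**Figure D3:**
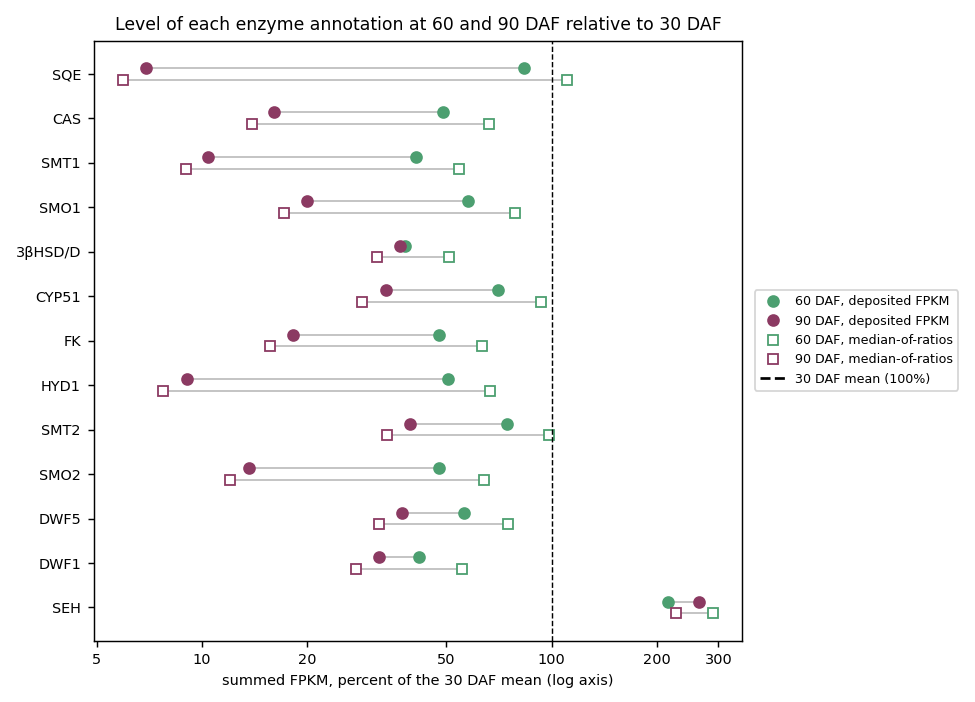
Summed FPKM of each of the 13 annotations at 60 DAF and at 90 DAF as a percent of its 30 DAF mean (horizontal log axis), from deposited FPKM (filled circles) and after median-of-ratios scaling (open squares). At 90 DAF the 12 biosynthesis annotations lie between 6.92% (SQE) and 39.3% (SMT2) of the 30 DAF mean on the deposited FPKM, and the ester hydrolase (SEH) lies at 264%.

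The make-up of the pathway's transcripts also differed between stages. Shares of the summed FPKM of the 27 biosynthesis unigenes are the same before and after median-of-ratios scaling, which multiplies a library by a single factor. At 30, 60 and 90 DAF, SMT2 took 27.9 ± 1.67%, 34.6 ± 2.06% and 38.4 ± 4.14% of this sum, with every 60 and 90 DAF library above every 30 DAF library. SQE took 7.60 ± 0.53%, 10.5 ± 0.50% and 1.86 ± 0.12% at 30, 60 and 90 DAF, and SMT1 8.32 ± 0.71%, 5.66 ± 0.48% and 3.10 ± 0.86%, and for both the stages did not overlap. DWF1 took 19.02 ± 0.90%, 13.3 ± 1.28% and 21.4 ± 2.01% at 30, 60 and 90 DAF, and was lowest at 60 DAF in every library. CYP51 varied less, from 13.6% to 18.9% over the 9 libraries.

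The ratio of SMT2, which leads to sitosterol, to SMT1, which acts before the routes to sitosterol and campesterol part, was 3.39 ± 0.50, 6.14 ± 0.53 and 13.2 ± 4.73 at 30, 60 and 90 DAF. Single libraries were at 2.98 to 3.95, 5.53 to 6.46 and 8.43 to 17.9 at the 3 stages, without overlap. These sums take the annotations as given, which rest on sequence similarity, and SMT1 and SMT2 are related proteins.

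**Figure D4:**
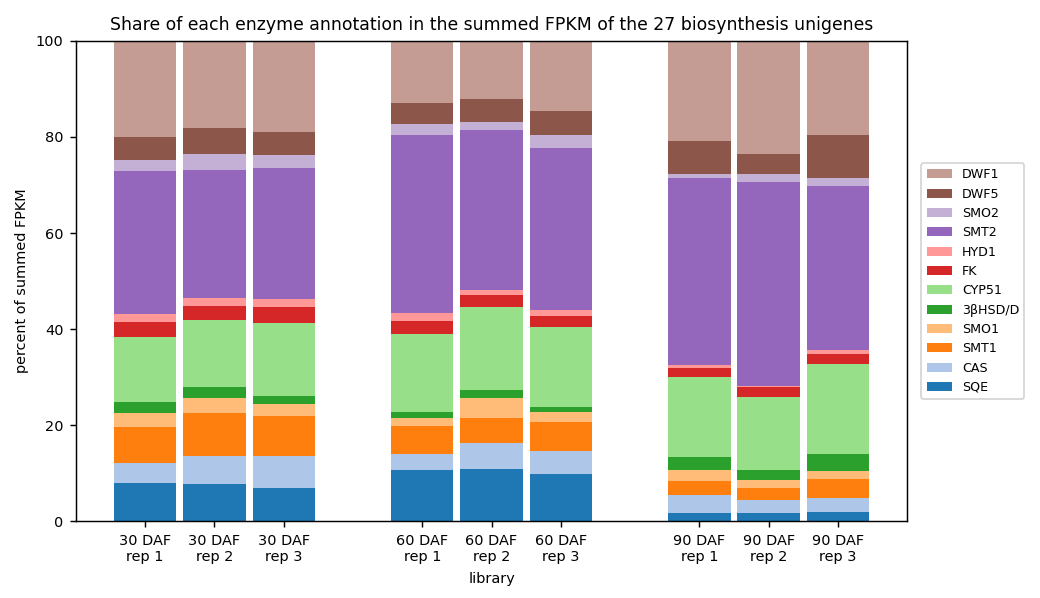
Share (percent, stacked bars from 0 to 100) of each of the 12 biosynthesis annotations in the summed FPKM of the 27 unigenes, for each of the 9 libraries. SMT2 averages 27.9%, 34.6% and 38.4% at 30, 60 and 90 DAF, and SQE 7.60%, 10.5% and 1.86%.

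The ester hydrolase annotation (SEH) stood apart from the biosynthesis steps. The enzyme is an acid lipase that frees sterols from their esters in animal lysosomes, and the annotation gives no more than similarity to it. Unigene20130_All had 5.68, 6.55 and 5.96 FPKM at 30 DAF, 11.8, 11.5 and 11.5 FPKM at 60 DAF and 16.6, 13.4 and 14.1 FPKM at 90 DAF. Its stages did not overlap, it had its highest level at 90 DAF, and it was the only sterol unigene called higher in Group III, with a log2 change relative to the median unigene of 1.14. After median-of-ratios scaling its unshifted log2 change in Group III was 0.996, against 1.21, just short of the 2-fold limit, and it was called higher in Group I instead, and under that scaling and quantile normalization the 90 DAF level was below the 60 DAF level.

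The remaining SEH unigenes were scarce. Unigene33225_All had 0.29, 0.21 and 0.25 FPKM at 30 DAF, 0.36, 1.42 and 4.27 FPKM at 60 DAF and 0.85, 1.27 and 0.32 FPKM at 90 DAF, and was called in no group, but as higher in Group I without replicate 1 at 60 DAF, with a log2 change of 2.01 on the unshifted scale. CL6438.Contig2_All was listed at 0 in all 6 libraries of 30 and 60 DAF and had 3.01, 0.56 and 0 FPKM at 90 DAF, and it was the unigene left out of the fit. CL6438.Contig1_All, the other contig of its cluster and outside the list, had 3.10, 3.26 and 2.86 FPKM at 30 DAF, 4.20, 3.38 and 2.92 FPKM at 60 DAF and 1.31, 3.82 and 3.78 FPKM at 90 DAF. Contig1 was lowest in the 90 DAF library in which Contig2 was highest, and the sum of both was 3.07 ± 0.20, 3.5 ± 0.65 and 4.16 ± 0.33 FPKM at 30, 60 and 90 DAF.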

How the data were processed

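Seeds at 30, 60 and 90 DAF gave 3 libraries each. The authors filtered the reads, assembled them with Trinity and Tgicl, mapped them to the unigenes with Bowtie2 and deposited FPKM estimated with RSEM (tool versions: not given in the sources used here). Read counts were not analysed here, and 9 lines without a unigene were left out. FPKM has length and library size divided out, so it is affected when a few transcripts take much of a library.

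From the deposited FPKM, log2(FPKM + 0.5) was fitted for the 55192 unigenes that reached 0.5 FPKM in 3 or more libraries, with limma 3.58.1 (R 4.3.3), a variance trend and a term per stage. The scale understates changes of low unigenes. Called means a change of at least 2-fold and an adjusted p of at most 0.05 (Benjamini-Hochberg over all 55192). The authors used DESeq2. The fit was checked on simulated data. Sums, shares and ratios used Python 3.11.15, pandas 2.3.3 and numpy 2.4.6, and plots matplotlib 3.10.9.

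The members and lists were chosen with earlier results of these data known. All 30 unigenes are named. Values in every library are given for the most abundant unigene of each annotation and for any with a mean of at least 5 FPKM, for the 3 highest squalene synthase unigenes, and for a few scarce unigenes and contigs of their clusters chosen after their values were seen. Of contigs outside the list, those above their cluster's lowest member are named, and CL5840.Contig2_All was added after its values were seen. The study's supplementary list supplied the members, the squalene synthase and oleosin unigenes and the other lipid unigenes set beside them. Only its names and annotations were read, and no expression value was taken from it.

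Alternatives were an added 0.1 or 1, no filter or 1 FPKM, median-of-ratios scaling, quantile normalization, a fit of only the stages compared, no variance trend, a block for the replicate number, an adjusted p of at most 0.01, sums over clusters, stage medians, and each library left out in turn.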

Additional observations from a re-analysis of the deposited data

How the results depend on the processing

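Scaling changed the size of the step to 60 DAF and the number of calls in it. The summed FPKM of the 12 biosynthesis annotations at 60 DAF was 60.2% of the 30 DAF mean on the deposited FPKM. It was 79.9% after median-of-ratios scaling and 79.0% after quantile normalization. Of the 12 sums, only that of SQE changed direction at this step. In Group I, 11 sterol unigenes were called, against 4 (3 lower, 1 higher) after median-of-ratios scaling, 4 after quantile normalization and 7 at an adjusted p of at most 0.01. Of all 55192 unigenes, 4443 were called (3496 lower), against 3494 (1960 lower), 3614 (1977 lower) and 2492 (1974 lower) in the same order. Leaving out each library gave 7 to 11, with 7 without replicate 2 at 30 DAF and 7 without replicate 3 at 60 DAF. The range was 3129 to 4843 of all 55192. In Groups II and III the 13 and 26 calls stayed within 1.5 times under every alternative, with 11 to 15 and 23 to 26 when a library was left out, and no unigene called in either lost its direction. Over all 55192 unigenes 15230 and 16677 were called, with 13513 to 15995 and 15045 to 18027 when a library was left out. The sterol unigenes with their highest mean at 60 DAF numbered 1, against 9 after median-of-ratios scaling, 7 after quantile normalization, 5 with stage medians, and 1 to 4 when a library was left out (2 without replicate 1 at 30 DAF, 4 without replicate 2 at 30 DAF, 3 without replicate 3 at 60 DAF). Those highest at 30 DAF numbered 27 and 24 to 27, and those highest at 90 DAF 2, with 1 after either scaling and 2 when a library was left out. The log2 ratio of the summed SQE FPKM at 60 over 30 DAF was -0.26, against 0.14 after median-of-ratios scaling and 0.11 after quantile normalization. That of SEH at 90 over 60 DAF was 0.29, against -0.34 and -0.14. In Group I, the unigenes CL10210.Contig2_All, Unigene384_All, Unigene385_All, Unigene81834_All and CL10351.Contig1_All, none of them called, also changed sign under both. Median-of-ratios scaling multiplies all unigenes of a library by 1 factor, quantile normalization moves them by rank, and which is nearer to the RNA of the seed was not tested. Replicate numbers did not pair the libraries, since the deviations of same-numbered libraries correlated between -0.16 and 0.13. With the replicate number as a block, 8, 12 and 25 sterol unigenes were called in Groups I, II and III. Of all 55192, 3502, 14497 and 16024 were. Depth limits the lowest unigenes, since a listed 0 still allows a low level, and below about 1 FPKM the fitted change depends on the value added.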
